A study of Homo sapiens with 60 samples.

Results

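The human mitochondrial genome holds 37 genes, and all 37 were followed through the 60675 genes of the deposited table by taking every gene whose symbol begins with MT-. They are 13 mRNAs, 2 ribosomal RNAs (rRNAs) and 22 transfer RNAs (tRNAs). Mitochondrial DNA is copied into long transcripts that span much of a strand, by the RNA polymerase POLRMT with the packaging and initiation factor TFAM. Excision of the tRNAs, which lie between most of the other genes, frees the mRNAs and rRNAs, and most of the mRNAs then receive poly(A) tails. The level of a single mitochondrial RNA thus also depends on steps after transcription. The mRNAs encode core subunits of the respiratory chain complexes and of ATP synthase, which supply much of the energy of a hepatocyte, and the rRNAs form the mitochondrial ribosome that translates them.

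The cells were HepG2, an established line from a human hepatocellular carcinoma, which met water extracts of herbs, or vehicle, for 24 h before RNA was taken. Of the 7 extracts, Cinnamomi Cortex, Astragali Radix, Cnidii Rhizoma and Rehmanniae Radix Preparata are single herbs, while Samul-tang, Sagunja-tang and Palmul-tang combine several, and doses were 20, 100 and 500 µg/mL. Each group had 3 libraries, apart from the groups of Palmul-tang with 1 library a dose, which makes 60 libraries in 22 groups. The vehicle was DMSO (dimethyl sulfoxide), at 0.1% in the sample labels and at 2% in the series' design text. The labels give a DMSO percentage for the vehicle libraries only, so whether the extract libraries had the same solvent is not known.

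The sample codes carry a first number, called the set here, which is 5 for Cnidii Rhizoma and Rehmanniae Radix Preparata, 6 for Cinnamomi Cortex and Astragali Radix, 7 for Sagunja-tang and Samul-tang and 8 for Palmul-tang. The titles of vehicle and extract libraries alike carry the label BatchB, and what it covers is not given. Vehicle libraries have the code B1 and none of these numbers, so a difference from vehicle and a difference between sets cannot be told apart. The doses of 1 extract, in contrast, share a set. Nothing in the labels says that replicates were separate cultures, so a p-value here sets a difference against the scatter among libraries, and that scatter may be technical. Library totals ran from 16484546 to 34412234 counts. All 12 hepatocyte markers were detected, with ALB (albumin) between 7916 and 11872 CPM (a gene’s counts scaled by the library total), and of 17 markers of other cell types 13 stayed at or below 2.66 CPM, among them PTPRC, CD3E and HBB of blood cells. The other 4 were LYZ and CD68 of myeloid cells, with up to 2850 and 125 CPM, and ACTA2 and PDGFRB of muscle and stromal cells, with up to 74.8 and 14.5 CPM.

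The ends of the genes are shown first because they bear on how these RNAs are tailed. In 6 of the 13 mRNAs the annotated gene stops within the stop codon, and the poly(A) tail supplies the missing bases. The last 15 bases of each are given from the GENCODE 29 transcripts (GRCh38, chromosome M, plus strand), with the position of the whole gene and the letters of the unfinished stop codon in capitals.
MT-ND1, chrM:3307-4262: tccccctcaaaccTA
MT-ND2, chrM:4470-5511: tactaataatcttaT
MT-CO3, chrM:9207-9990: attgatgagggtctT
MT-ND3, chrM:10059-10404: tagactgaaccgaaT
MT-ND4, chrM:10760-12137: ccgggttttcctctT
MT-CYB, chrM:14747-15887: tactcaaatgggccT

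The genes are packed so closely that neighbours share bases, which can matter for assigning reads. MT-ATP8 and MT-ATP6, subunits of ATP synthase carried on 1 mRNA, overlap by 46 bases, shown here with the start codon of MT-ATP6 in capitals. MT-ND4L and MT-ND4, subunits of complex I that also share an mRNA, overlap by 7 bases, shown in capitals at the end of MT-ND4L.
MT-ATP8 and MT-ATP6, chrM:8527-8572, plus strand: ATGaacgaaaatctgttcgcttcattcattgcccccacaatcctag
MT-ND4L, chrM:10737-10766, plus strand: gtacataacctaaacctactccaATGCTAA
Both overlaps are shorter than the reads of 100 bases. Counts of MT-ATP8 were not whole in 2 of the 60 libraries, and those of MT-ND4L in 0. MT-ATP8 is only 207 bases long against reads of 100 bases, so its values are uncertain.

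The 2 rRNA genes are parted from each other and from MT-ND1, the first mRNA gene, by 1 tRNA gene each, and cutting out these tRNAs sets the ends of the rRNAs. The spacer genes, for valine (MT-TV) and leucine (MT-TL1), are given whole.
MT-TV, chrM:1602-1670, plus strand: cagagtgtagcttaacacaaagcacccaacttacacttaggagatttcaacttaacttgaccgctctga
MT-TL1, chrM:3230-3304, plus strand: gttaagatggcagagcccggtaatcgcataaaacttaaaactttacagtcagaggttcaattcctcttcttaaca

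The tRNAs were nearly absent from the table. They are 59 to 75 bases long against reads of 100 bases, and all 22 together had 68 counts over the 60 libraries, with 0 to 4 counts in a library. Only 8 of the 22 were above 0 in any library, and the highest value was 3 counts, for MT-TQ, the glutamine tRNA. The other 14, among them MT-TL1 and MT-TV, were at 0 throughout, which allows up to 3 counts each for counting error alone. No tRNA passed the filter on low counts, and the tests below cover the 13 mRNAs and 2 rRNAs, which are 15 of the 16167 genes tested.

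Levels within vehicle-treated cells can be compared between genes only per length, and then only roughly. The length was that of the whole annotated gene, without allowance for read length. MT-ATP8 had 3055 CPM per kilobase against 14034 for MT-ATP6 of the same mRNA, and MT-ND4L had 6182 against 13586 for MT-ND4. The order is thus one of counts per length and not of RNA level. How mRNA was selected is not given, which bears on the place of the rRNAs. In CPM per kilobase, MT-CO3, a core subunit of complex IV (cytochrome c oxidase), stood highest at 22309 ± 314 (SD, n = 3), and MT-RNR2, the large rRNA, came next at 17459 ± 657. MT-CO2 and MT-CO1, the other core subunits of complex IV, followed at 15477 ± 1074 and 15074 ± 967 CPM per kilobase, and their libraries overlapped. Through MT-ATP6, MT-ND4, MT-ND3, MT-ND1, MT-ND2, MT-CYB, MT-RNR1 and MT-ND4L, in that order, each gene overlapped the next, so this middle of the order was not resolved by 3 libraries.

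At the low end, MT-ND5, a large subunit of complex I, had 3590 ± 271 CPM per kilobase. MT-ND6, the only mRNA gene of the light strand (chrM:14149-14673), was lowest at 1049 ± 58.2 and did not overlap MT-ATP8, the gene above it. MT-RNR1, the small rRNA (chrM:648-1601), stood at 6465 ± 615 CPM per kilobase, below MT-RNR2 (chrM:1671-3229), the other rRNA of the same ribosome.

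Together the 37 genes took 12.96 to 22.6% of the counts of a library. In the series of Cinnamomi Cortex the share was 14.6, 14.4 and 16.7% in vehicle libraries, 16.6, 15.9 and 16.9% at 20 µg/mL, 18.9, 19.7 and 17.7% at 100 µg/mL and 21.9, 22.3 and 19.4% at 500 µg/mL. The libraries at 500 µg/mL lay above all those at 20 µg/mL and of vehicle. The rRNAs moved more than the mRNAs and varied less. The rRNAs took 6.70 ± 0.127% of counts at 500 µg/mL, against 3.34 ± 0.125% in vehicle libraries (SD, n = 3 each), and the mRNAs took 14.5 ± 1.52% against 11.9 ± 1.19%. For the mRNAs alone the groups overlapped, with 1 library at 500 µg/mL at 12.8%, below the highest of vehicle (13.3%) and of 20 µg/mL (12.9%). Outside Cinnamomi Cortex at 100 and 500 µg/mL, the rRNA share stayed between 3.02 and 4.64% in 54 libraries. In bulk RNA, more mitochondria or mitochondrial RNA per cell and less of all other RNA cannot be told apart.

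**Figure D1:**
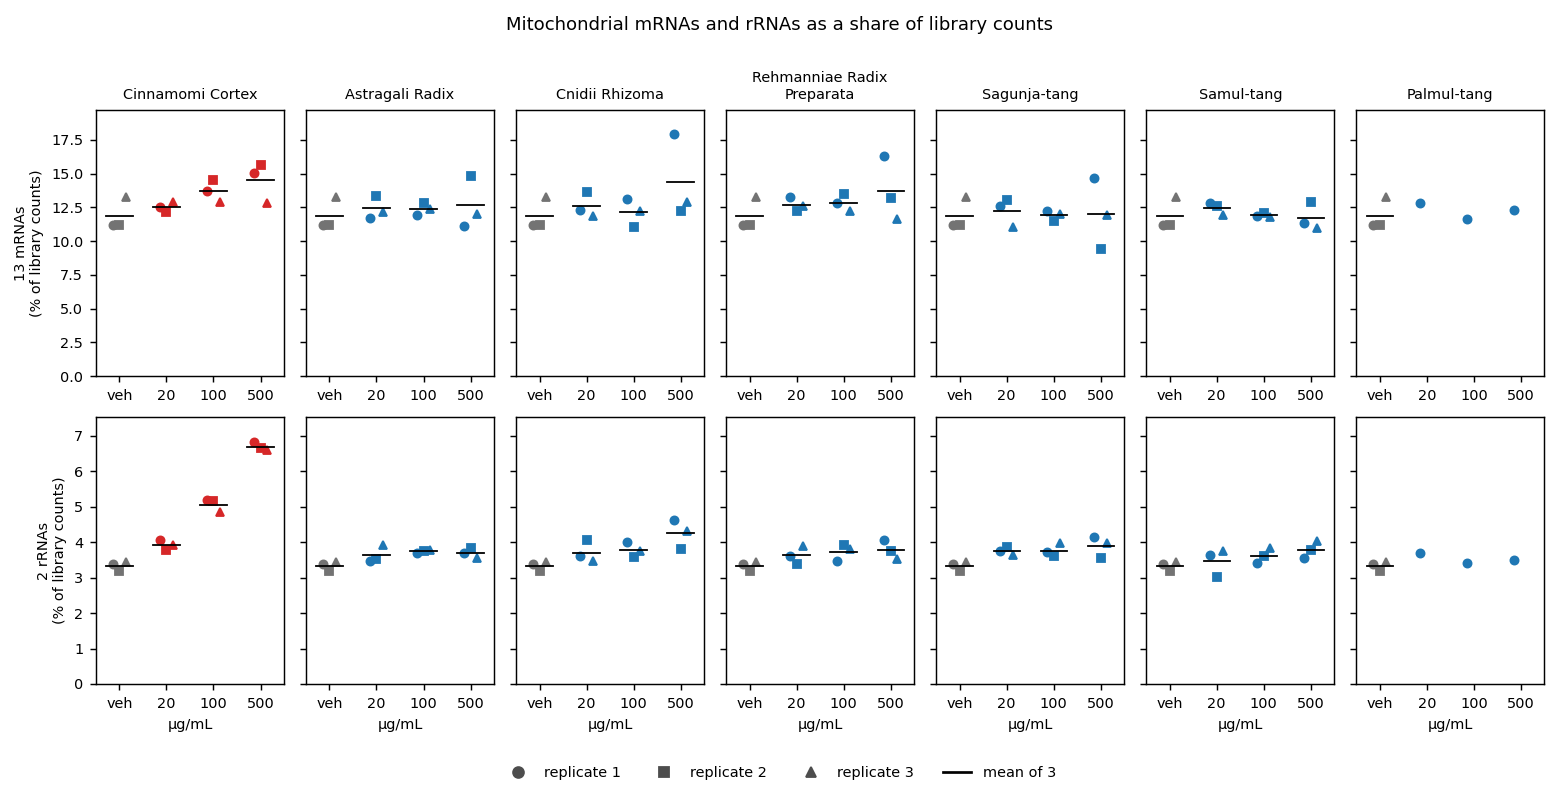
Share of library counts (%) in the 13 mitochondrial mRNAs (top) and the 2 rRNAs (bottom) for each extract, with vehicle (veh) and dose in µg/mL on the x axis. Symbols are libraries by replicate number and bars are means of 3; the rRNA share of Cinnamomi Cortex climbs to 6.70% at 500 µg/mL, while the other extracts stay at or below 4.64%.

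Single libraries of other extracts reached mitochondrial shares as high as those of Cinnamomi Cortex. Replicate 1 of Cnidii Rhizoma at 500 µg/mL had the highest share of all 60 libraries, 22.6%, while its replicates 2 and 3 had 16.005 and 17.2%. Rehmanniae Radix Preparata at 500 µg/mL, of the same set, had 20.4% in replicate 1 and 16.9 and 15.2% in replicates 2 and 3. Sagunja-tang at 500 µg/mL held both a high library at 18.8% and the lowest of the series at 12.96%, with 15.9% in the third. At 20 µg/mL the 18 libraries of 6 extracts kept to a narrower range, 14.6 to 17.7%.

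The rRNAs gained most with Cinnamomi Cortex. MT-RNR1 had 19602, 17390 and 18890 CPM at 500 µg/mL, against 6804, 5648 and 6052 CPM in vehicle libraries. It rose by 1.87 ± 0.10 on the log2 scale, a 3.66-fold change (edgeR's quasi-likelihood test, Benjamini-Hochberg adjusted p = 1.69e-21, SE from the fit). Here and below, CPM values are per library total, while log2 changes are also scaled by TMM, which sets the bulk of genes level between libraries. MT-RNR2 had 48798, 49236 and 47045 CPM at 500 µg/mL, against 26971, 26339 and 28343 CPM in vehicle libraries. It rose by 1.11 ± 0.09 (edgeR adjusted p = 7.22e-15), and for both rRNAs every library of Cinnamomi Cortex lay above every vehicle library.

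The same held within the set. Against Cinnamomi Cortex at 20 µg/mL, where MT-RNR1 had 8054, 8170 and 8372 CPM, the log2 change at 500 µg/mL was 1.45 ± 0.10 (adjusted p = 1.57e-17, edgeR). MT-RNR2, with 32701, 29767 and 30908 CPM at 20 µg/mL, rose by 0.90 ± 0.09 (edgeR adjusted p = 4.64e-12). At 100 µg/mL MT-RNR1 had 13072, 14302 and 12238 CPM, above all libraries at 20 µg/mL, and was 0.76 ± 0.10 higher than there (edgeR adjusted p = 2.11e-07). MT-RNR2 was 0.33 ± 0.09 higher (edgeR adjusted p = 0.0144), a call lost without replicate 1 at 100 µg/mL (adjusted p = 0.0618) or replicate 2 at 20 µg/mL (0.0817). These were the only 2 of the 15 genes called between 100 and 20 µg/mL, where 7.43% of all genes tested were called. The count was 8 without the filter on low counts (3.35% of all genes called) and 6 with only the compared groups fitted (6.36%).

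Ratios within the mitochondrial counts do not depend on library scaling. Per 100 counts of mRNA, the rRNAs had 28.2 ± 2.13 counts in vehicle libraries, 31.4 ± 1.06 at 20 µg/mL of Cinnamomi Cortex, 37.0 ± 1.22 at 100 µg/mL and 46.5 ± 4.63 at 500 µg/mL (SD, n = 3 each). The 54 libraries outside the upper doses of Cinnamomi Cortex ranged from 23.9 to 37.9, so the groups at 100 µg/mL and below lay within the range of other extracts, and the group at 500 µg/mL, with 42.5 to 51.5, did not. The 2 rRNAs also moved apart. MT-RNR1 counts per 100 MT-RNR2 counts were 22.7 ± 2.21 in vehicle libraries, 26.4 ± 1.53 at 20 µg/mL, 35.3 ± 2.62 at 100 µg/mL and 38.5 ± 2.80 at 500 µg/mL, while the 54 other libraries did not pass 31.8.

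**Figure D2:**
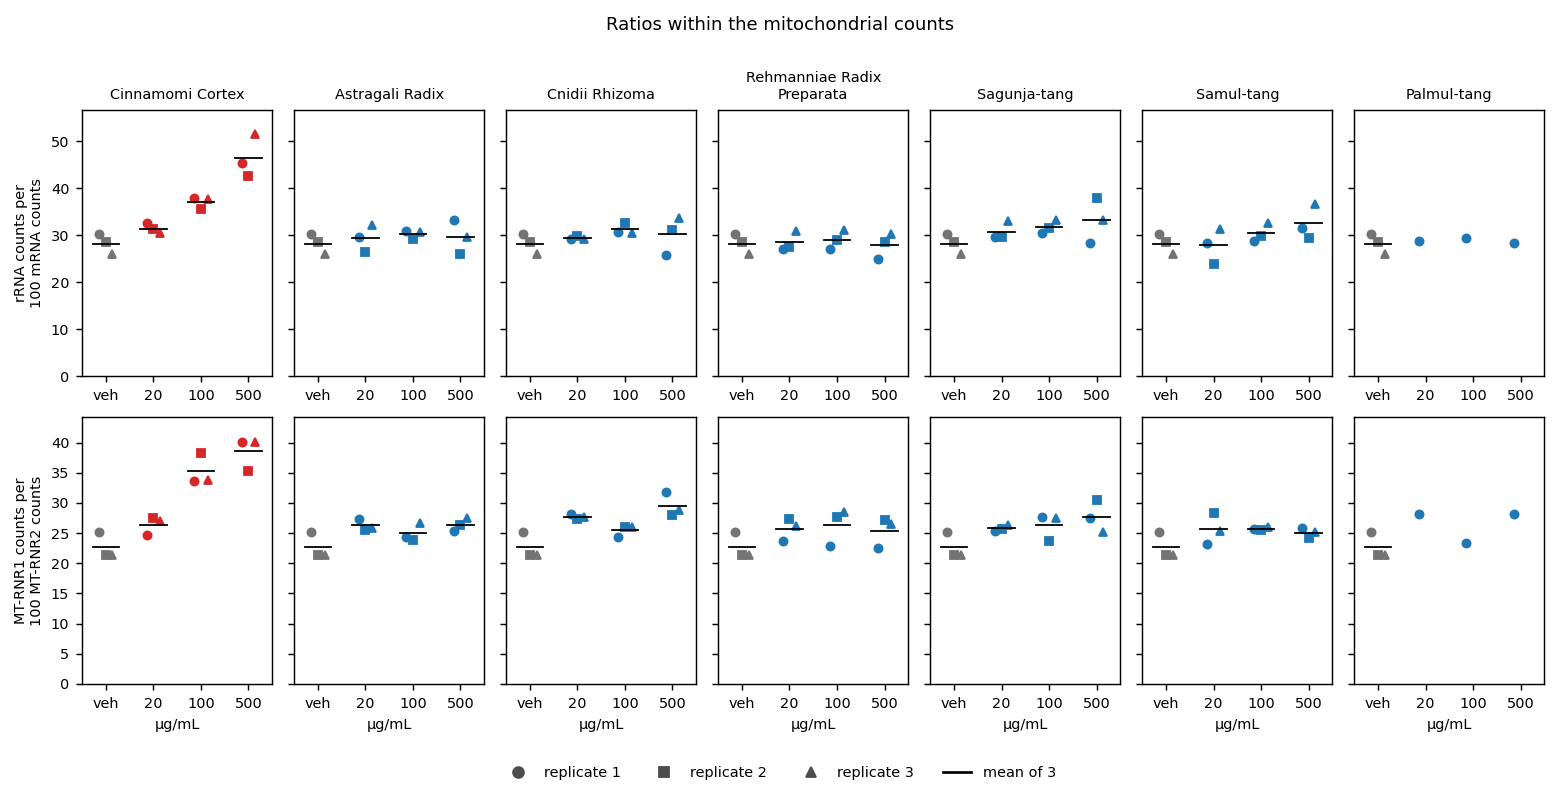
Counts of the 2 rRNAs per 100 counts of mitochondrial mRNA (top) and MT-RNR1 counts per 100 MT-RNR2 counts (bottom), by extract, with vehicle (veh) and dose in µg/mL on the x axis. Symbols are libraries and bars are means of 3; Cinnamomi Cortex at 500 µg/mL averages 46.5 and 38.5, above the ranges of all other extracts.

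Other RNAs that lack a poly(A) tail when made moved along in part. Of 4 such nuclear RNAs tested (RN7SL1, RN7SL2, RMRP and RPPH1), edgeR called 4 higher with Cinnamomi Cortex at 500 µg/mL than in vehicle libraries, where 62.7% of all genes tested were called (31.1% higher). The summed level of the 8 found in the table was 47.2 to 83.0 CPM at 500 µg/mL, against 27.5 to 49.3 CPM in vehicle libraries, with 3 of the 8 at 0 in each group. Between 500 and 20 µg/mL, where the sum was 33.5 to 80.7 CPM at 20 µg/mL, 0 of the 4 were called. At 100 µg/mL, where MT-RNR1 was already above every library of the lower dose, the sum was 32.6 to 48.8 CPM. Cnidii Rhizoma reached sums as high, with 49.8 to 83.0 CPM at 500 µg/mL and 52.3 to 99.1 CPM at 20 µg/mL, and 1 and 3 of the 4 were called higher than in vehicle libraries (11.8% and 6.49% of all genes called). The part of RNA selection in the rRNA values was not tested. Of 8 tested markers of other cell types, 4 were called higher and 2 lower with Cinnamomi Cortex at 500 µg/mL than in vehicle libraries, beside the same 62.7%, and the sum over all 17 was 2608 to 3024 CPM at 500 µg/mL, against 1323 to 1481 CPM in vehicle libraries, with 5 of 17 at 0 in each group. LYZ (lysozyme) alone ran from 1073 to 2850 CPM over the series. The part of other cells in the mitochondrial values was not tested.

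With Cinnamomi Cortex at 500 µg/mL, 12 of the 15 genes tested were called higher than in vehicle libraries and 0 lower, where 62.7% of all genes tested were called (31.1% higher). The median log2 change of the 15 was 0.59, beside -0.02 over all genes. Besides the rRNAs these were MT-ND1, MT-ND2, MT-ND4 and MT-ND4L of complex I, MT-CYB of complex III, MT-CO1, MT-CO2 and MT-CO3 of complex IV, and MT-ATP6 and MT-ATP8. Against 20 µg/mL of the same extract 10 of 15 were called higher and 0 lower, where 61.9% of all genes were called (30.5% higher). The 2 lost there, MT-ND2 and MT-ATP8, had log2 changes of 0.29 and 0.62. The count was 6 without replicate 2 at 500 µg/mL, and 7 to 12 without any other 1 library.

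All 3 mRNAs of complex IV were called higher. MT-CO2 had 15711, 15619 and 12626 CPM at 500 µg/mL, against 10492, 9903 and 11364 CPM in vehicle libraries, and rose by 0.75 ± 0.15 (adjusted p = 1.78e-05, edgeR), with no overlap between the groups. MT-CO1 had 30331, 29352 and 26525 CPM, against 22779, 22041 and 24911 CPM in vehicle libraries, and rose by 0.59 ± 0.12 (edgeR adjusted p = 2.74e-05). MT-CO3 had 22342, 23181 and 19543 CPM, against 17636, 17206 and 17629 CPM in vehicle libraries, and changed by as much (edgeR adjusted p = 2.61e-05). Neither gene's groups overlapped. Against 20 µg/mL the changes of these 3 genes were 0.81, 0.59 and 0.46.

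Of the 7 complex I genes, 4 were called against vehicle. MT-ND4L rose by 0.72 ± 0.15, MT-ND1 by 0.54 ± 0.18, MT-ND4 by 0.52 ± 0.17 and MT-ND2 by 0.44 ± 0.17, with adjusted p between 4.14e-05 and 0.0223 (edgeR). MT-ND5 had 6401, 7068 and 5804 CPM at 500 µg/mL, against 6161, 6286 and 7067 CPM in vehicle libraries, and its log2 change of 0.26 ± 0.14 did not pass (edgeR adjusted p = 0.108). The vehicle values in CPM lay within the range at 500 µg/mL. MT-ND3 and MT-ND6 did not pass either, with log2 changes of 0.39 ± 0.20 and 0.53 ± 0.25. MT-CYB, the cytochrome b of complex III, rose by 0.64 ± 0.15 (adjusted p = 1.97e-04), and MT-ATP6 by 0.61 ± 0.16 (8.03e-04). MT-ATP8 had 991, 1399 and 833 CPM at 500 µg/mL, against 362, 807 and 728 CPM in vehicle libraries, and rose by 1.05 ± 0.32 (edgeR adjusted p = 0.00369), with the widest spread of these genes.

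**Figure D3:**
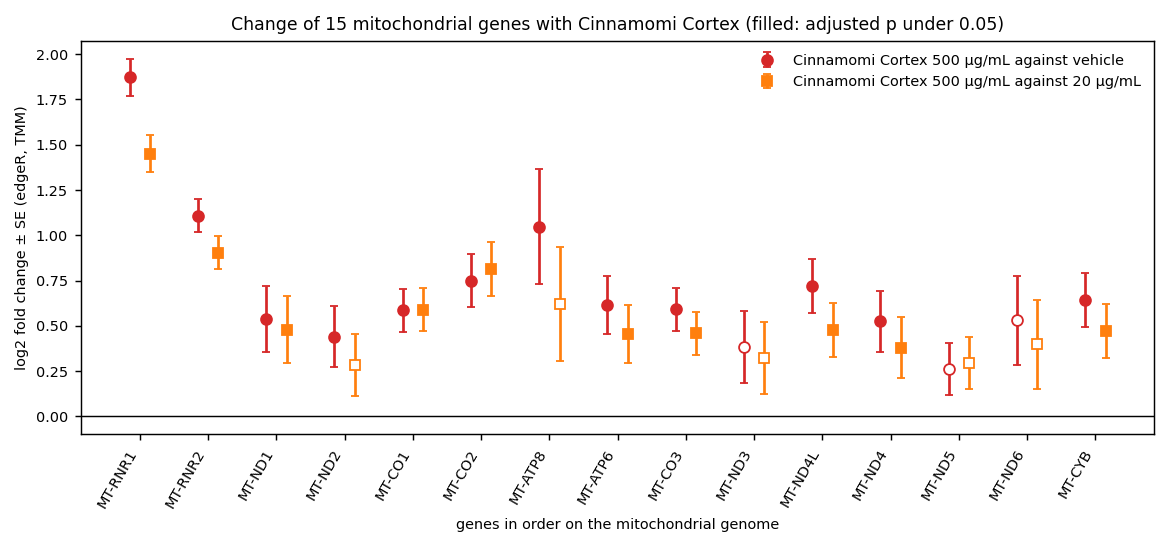
log2 fold changes with standard errors (edgeR, TMM) of the 15 tested genes, in their order on the mitochondrial genome, for Cinnamomi Cortex at 500 µg/mL against vehicle (circles) and against 20 µg/mL (squares); filled symbols have an adjusted p under 0.05. MT-RNR1 and MT-RNR2 stand above the mRNAs at 1.87 and 1.11 against vehicle, and MT-ND5 is lowest at 0.26.

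Scaling matters for the mRNAs here. Cinnamomi Cortex at 500 µg/mL had TMM factors of 0.834 to 0.863, against 1.01 to 1.04 in vehicle libraries. With library totals alone, the median of all genes shifted by -0.30 against vehicle and -0.29 against 20 µg/mL (the log2 changes above are relative to the bulk of genes). On library totals 9 of 15 were still called higher than in vehicle libraries (66.5% of all genes called), with MT-ND1, MT-ND2 and MT-ND4 lost. Against 20 µg/mL 4 of 15 were called higher (64.9% of all genes called), namely MT-RNR1, MT-RNR2, MT-CO1 and MT-CO2. MT-RNR1 was then higher by 1.59 and MT-RNR2 by 0.83 against vehicle.

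As shares of the mitochondrial counts, where all scaling falls away, the rRNAs took more and several complex I genes less. MT-RNR1 made up 4.07 ± 0.538% of mitochondrial counts in vehicle libraries, 4.98 ± 0.139% at 20 µg/mL, 7.03 ± 0.207% at 100 µg/mL and 8.82 ± 0.985% at 500 µg/mL (SD, n = 3 each). MT-ND5 took less, with 4.27 ± 0.0796% in vehicle libraries, 3.83 ± 0.0564% at 20 µg/mL, 3.52 ± 0.0817% at 100 µg/mL and 3.03 ± 0.125% at 500 µg/mL, and none of these 4 groups overlapped the next. The shares have a fixed sum, so a gain of the rRNAs by itself lowers those of other genes. In CPM the MT-ND5 libraries at 500 µg/mL and of vehicle overlapped, as given above. MT-ND2 had 4.78 ± 0.253% at 500 µg/mL, against 6.09 ± 0.148% at 20 µg/mL and 5.95 ± 0.126% in vehicle libraries. MT-CO2 had 6.89 ± 0.338% at 500 µg/mL, against 6.10 ± 0.364% at 20 µg/mL and 6.96 ± 0.209% in vehicle libraries, so its share overlapped that of vehicle. Among mRNA counts alone, the 7 complex I genes held 38.8 ± 1.01% at 500 µg/mL, against 41.3 ± 2.24% in vehicle libraries, with 1 library at 40.0%, above the lowest vehicle library at 39.7%.

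**Figure D4:**
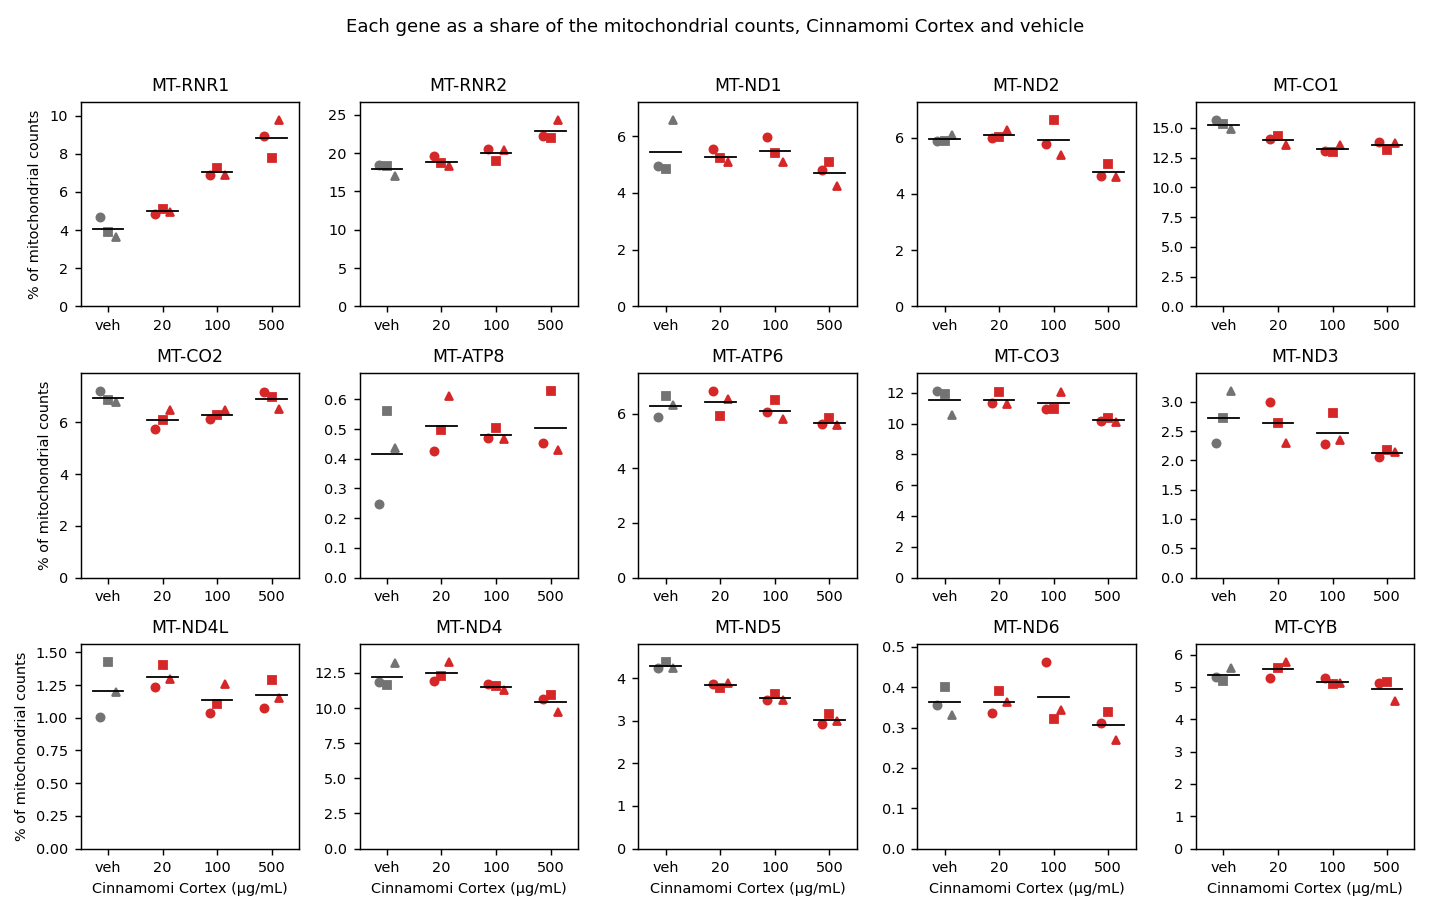
Each of the 15 genes as a share of the mitochondrial counts (%) in vehicle libraries (veh, grey) and with Cinnamomi Cortex at 20, 100 and 500 µg/mL (red); symbols are libraries and bars are means of 3, and each panel has its own axis from 0. With dose MT-RNR1 climbs to 8.82% and MT-ND5 declines to 3.03% of mitochondrial counts, as shares with a fixed sum.

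Astragali Radix shares the set of Cinnamomi Cortex and gave the closest comparison of 2 extracts at 1 dose. At 500 µg/mL, 9 of 15 genes were called higher with Cinnamomi Cortex than with Astragali Radix and 0 lower, where 62.7% of all genes were called (30.9% higher). MT-RNR1, with 7476, 8030 and 7653 CPM in Astragali Radix libraries, was higher with Cinnamomi Cortex by 1.53 ± 0.10 (adjusted p = 2.14e-18, edgeR), and MT-RNR2 by 0.98 ± 0.09 (3.25e-13). The change between 500 and 20 µg/mL itself differed between these extracts, in a contrast added after seeing the data, for 5 of 15 genes, a smaller share than the 50.9% of all genes that differed (25% with the larger change under Cinnamomi Cortex). They were MT-RNR1 (by 1.41 ± 0.14), MT-RNR2 (0.87 ± 0.13), MT-CO2 (0.79 ± 0.21), MT-CO1 (0.58 ± 0.17) and MT-CO3 (0.47 ± 0.17). Their adjusted p lay between 4.16e-12 and 0.0172, all larger with Cinnamomi Cortex. On library totals the count of 9 became 5 (65.5% of all genes called). Without replicate 1 of Astragali Radix or replicate 2 of Cinnamomi Cortex it was 6. Without the 6 replicate 1 libraries of set 6 it was also 5 (56.9% of all genes called).

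In the other 5 replicated extracts MT-RNR1 was called above vehicle each time at the top dose. At 500 µg/mL it rose with Cnidii Rhizoma by 0.74 ± 0.10, with Sagunja-tang by 0.48 ± 0.10, with Rehmanniae Radix Preparata by 0.35 ± 0.10, with Astragali Radix by 0.34 ± 0.10 and with Samul-tang by 0.30 ± 0.10 (adjusted p from 8.00e-07 to 0.0415, edgeR). It was the only gene of the 15 called with Sagunja-tang (12.3% of all genes called), Rehmanniae Radix Preparata (7.45%), Astragali Radix (3.04%) and Samul-tang (13.7%). At 20 µg/mL it also rose with Cinnamomi Cortex by 0.42, with Cnidii Rhizoma by 0.41 and with Sagunja-tang by 0.33, again as the only gene called (7.16%, 6.49% and 11.4% of all genes). Of the 4 nuclear RNAs without a poly(A) tail, in these 3 comparisons 1, 3 and 0 were called higher, with median log2 changes of 1.02, 1.24 and 0.64. At 500 µg/mL 1 was called with Cnidii Rhizoma (median 0.89) and 0 with the other 4 extracts (medians 0.33 to 0.85), and their part was not tested. These comparisons share the 3 vehicle libraries, whose MT-RNR1 values of 5648 to 6804 CPM include the lowest of all 60 libraries, and the set and the vehicle cannot be told apart.

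Several of these calls hung on 1 library. Without vehicle replicate 2, the lowest in MT-RNR1, the calls with Rehmanniae Radix Preparata, Astragali Radix and Samul-tang at 500 µg/mL and with all 3 extracts at 20 µg/mL were lost (adjusted p from 0.0542 to 0.205). Without vehicle replicate 3 the 3 single calls at 500 µg/mL and that of Sagunja-tang at 20 µg/mL were lost (0.0528 to 0.101). Replicates 1 and 2 of Rehmanniae Radix Preparata, 2 and 3 of Astragali Radix and 2 and 3 of Samul-tang at 500 µg/mL, replicate 2 of Cnidii Rhizoma and 1 and 2 of Sagunja-tang at 20 µg/mL also each carried the call of their group (0.057 to 0.196 without them). The calls with Cnidii Rhizoma and Sagunja-tang at 500 µg/mL were kept without any 1 library. The counts of called genes at 500 µg/mL could also grow. With Rehmanniae Radix Preparata 3 of 15 were called without its replicate 3 or with only the compared groups fitted (6.1% of all genes called in the latter). With Sagunja-tang 2 were called without its replicate 2. Without the filter on low counts the counts were 13 with Rehmanniae Radix Preparata (3.56% of all genes called), 6 with Astragali Radix (1.82%), 5 with Samul-tang (5.77%) and 3 with Sagunja-tang (5.15%). At 20 µg/mL edgeR called 0 of 15 with Rehmanniae Radix Preparata (7.19% of all genes called), Astragali Radix (3.93%) and Samul-tang (20.7%), while 1 gene each had an unadjusted p under 0.05 and DESeq2 called 0.

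Cnidii Rhizoma had the next highest number of calls, most of which rested on 1 library. At 500 µg/mL 5 of 15 genes were called above vehicle and 0 below, where 11.8% of all genes were called. MT-RNR1 had 11190, 8307 and 9672 CPM, all above the 5648 to 6804 CPM of vehicle libraries. MT-RNR2 had 35201, 29667 and 33555 CPM, also above the vehicle libraries, and rose by 0.35 ± 0.09 (edgeR adjusted p = 0.00794). MT-ATP8, at 2137, 635 and 1582 CPM with Cnidii Rhizoma against 362, 807 and 728 CPM in vehicle libraries, rose 2.46-fold (adjusted p = 0.00461, edgeR) with overlapping groups. MT-ND6 rose by 0.77 ± 0.25 (0.0321) and MT-ND4L by 0.54 ± 0.15 (0.0122), both with overlap. The count was 1, MT-RNR1, without replicate 1 at 500 µg/mL, 2 without vehicle replicate 1 and 10 without replicate 2 at 500 µg/mL. A fit restricted to the 2 groups also gave 1 (4.08% of all genes called).

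Between 500 and 20 µg/mL edgeR called 0 of 15 genes with Cnidii Rhizoma (3.22% of all genes called), although 6 had an unadjusted p under 0.05 and DESeq2 called 1. MT-RNR1, at 7918, 8693 and 7512 CPM at 20 µg/mL, was 0.33 ± 0.10 higher at 500 µg/mL (edgeR adjusted p = 0.051), and 1 library at 500 µg/mL, with 8307 CPM, lay below the highest at 20 µg/mL. The count became 6 without replicate 2 at 500 µg/mL and 1 without replicate 2 at 20 µg/mL. Against Rehmanniae Radix Preparata, of the same set, MT-RNR1 was 0.39 ± 0.10 higher with Cnidii Rhizoma at 500 µg/mL (edgeR adjusted p = 0.0453) and was the 1 gene of 15 called, where 0.705% of all genes were called. Leaving out any 1 of 5 of the 6 libraries raised its adjusted p to between 0.102 and 0.329, the exception being replicate 2 of Cnidii Rhizoma.

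**Figure D5:**
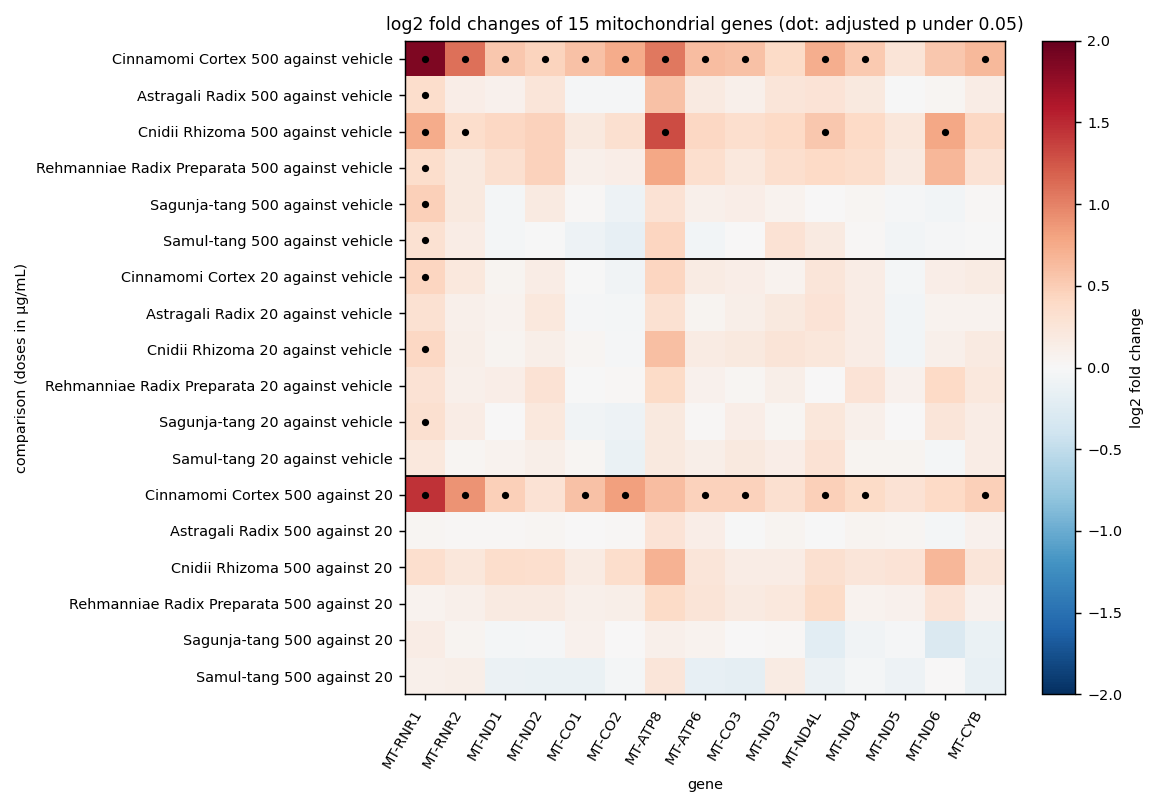
log2 fold changes (colour, -2 to 2) of the 15 tested genes (columns, in genome order) in 6 extracts at 500 µg/mL against vehicle, at 20 µg/mL against vehicle and at 500 against 20 µg/mL (rows); dots mark an adjusted p under 0.05. Dots fill the rows of Cinnamomi Cortex at 500 µg/mL (12 and 10), MT-RNR1 holds the only dot of 7 other rows, and 8 rows have none.

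Within-extract dose differences were small elsewhere. Between 500 and 20 µg/mL edgeR called 0 of 15 genes with Rehmanniae Radix Preparata (0.674% of all genes called, 1 gene at an unadjusted p under 0.05), Astragali Radix (1.16%, 0 genes), Sagunja-tang (4.99%, 0 genes) and Samul-tang (9.88%, 0 genes), and DESeq2 called 0 in each. Median log2 changes of the 15 genes were 0.17, 0.04, 0.01 and -0.11 in that order. Sagunja-tang against Samul-tang at 500 µg/mL gave 0 calls with edgeR, 0 with DESeq2 and 0 at an unadjusted p under 0.05, where 0.885% of all genes were called. Over the 22 comparisons, 277 of the 330 log2 changes of the 15 genes were above 0, and 261 on library totals. The share above 0 over all genes tested was not counted. Libraries recur across these comparisons, the vehicle ones among them, so the values are not independent. Both edgeR and DESeq2 called 46, 0 of them lower, with 0 lower at an unadjusted p under 0.05 in either. With edgeR, 12, 10 and 9 of the 46 came from Cinnamomi Cortex at 500 µg/mL against vehicle, 20 µg/mL and Astragali Radix. There 62.7, 61.9 and 62.7% of all genes were called, beside 0.674 to 20.7% in the other comparisons.

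Palmul-tang, with 1 library a dose, had mitochondrial shares of 16.5, 15.1 and 15.8% of library counts at 20, 100 and 500 µg/mL, and rRNA counts of 28.8, 29.3 and 28.4 per 100 mRNA counts, all within the range of the other extracts. Its MT-RNR1 values of 8108, 6484 and 7659 CPM had no order by dose.

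The precision of a gene's level differed among members. MT-CO1 and MT-CO3 had a median coefficient of variation within groups of 4.88 and 5.31%, and MT-RNR2 and MT-RNR1 of 5.85 and 6.06%. MT-ATP8 varied most, at 26.1%, with MT-ND6 next, and over the 60 libraries MT-ATP8 ranged from 362 to 2137 CPM and MT-ND6 from 365 to 1258 CPM. The highest MT-ND6 values came from replicate 1 of Rehmanniae Radix Preparata and of Cnidii Rhizoma at 500 µg/mL, 1258 and 1248 CPM, the libraries with high mitochondrial shares. Whether counting used the strand is not given in the sources used here, so reads of MT-ND6 and antisense RNA of the opposite strand cannot be told apart.

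Copies of mitochondrial sequence in the nuclear genome also had counts. The table holds 404 such copies with 0.148 to 0.321% of counts, led by MTATP6P1, MTND2P28 and MTCO1P12 on chromosome 1 with means of 1629, 368 and 73.8 CPM. Beside them MT-ATP6, MT-ND2 and MT-CO1 had medians of 10086, 10184 and 22898 CPM over the 60 libraries. MT-CO2, MT-ATP6 and MT-CO3 had counts that were not whole in all 60 libraries, and MT-CO1, MT-ND1 and MT-ND2 in 59. The same held for MT-RNR2 in 35 libraries, MT-ND4 in 29 and MT-ATP8 in 2. How many reads were shared between these genes and their copies was not tested, so their values are uncertain. MT-RNR1, MT-ND3, MT-ND4L, MT-ND5, MT-ND6 and MT-CYB had whole counts in every library. The copies took 0.238 ± 0.0280% of counts at 500 µg/mL of Cinnamomi Cortex, against 0.180 ± 0.0188% in vehicle libraries.

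The nuclear genes that maintain and express mitochondrial DNA moved in both directions. With Cinnamomi Cortex at 500 µg/mL against vehicle, 5 of 10 transcription factors and polymerase genes fell and 2 rose, with a median log2 change of -0.22 beside -0.02 over all genes. With Samul-tang at 20 µg/mL against vehicle 7 of the same 10 fell and 1 rose, with a median log2 change of -0.21 (20.7% of all genes called). There 0 of the 15 mitochondrial genes were called. With only those groups fitted, 0.643% of all genes were called, and this list was not counted. Replicate 2 of that Samul-tang group differed from replicates 1 and 3 by a chi-square per degree of freedom of 23.4 and 24.3, against 3.77 between replicates 1 and 3. Larger values stood between replicates 1 and 2 at 500 µg/mL, with Sagunja-tang (39.7) and Cnidii Rhizoma (37.8). With Cinnamomi Cortex, TFAM had 52.4 ± 0.990 CPM at 500 µg/mL, against 90.3 ± 0.939 CPM in vehicle libraries, and fell by 0.51 (adjusted p = 6.26e-09, edgeR). MTERF2, MTERF4 and MTERF3, of a family that includes a transcription termination factor, fell by 1.04, 0.65 and 0.54. POLRMT rose by 0.41 (57.4 against 52.5 CPM) and MRPL12, a ribosomal protein that also binds the polymerase, by 0.45, but on library totals neither passed (log2 changes of 0.13 and 0.17), and the list then had 0 higher and 8 lower.

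Genes for processing and decay of mitochondrial RNA showed 4 of 21 higher and 12 lower (2 and 17 on library totals), with a median log2 change of -0.26. LRPPRC, which stabilises mitochondrial mRNAs, had 287 ± 6.28 CPM at 500 µg/mL against 444 ± 14.3 CPM in vehicle libraries and fell by 0.35. PTCD3, a small ribosomal subunit protein, fell by 0.68, PNPT1, a nuclease of mitochondrial RNA, by 0.70, and ELAC2, which cuts the 3′ end of tRNAs, by 0.42, while TBRG4 rose by 0.43. Genes of mitochondrial DNA maintenance showed 2 of 17 higher and 9 lower (0 and 13 on library totals). DNA2, a nuclease-helicase that also acts in the nucleus, fell by 1.41, and MGME1, a mitochondrial exonuclease, by 0.69.

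Among 12 regulators of mitochondrial biogenesis, 3 rose and 7 fell (3 and 9 on library totals). The 3 were PPARGC1A, a coactivator of such genes, with 34.1 ± 1.04 CPM at 500 µg/mL against 24.1 ± 2.40 CPM in vehicle libraries and a log2 change of 0.78, its partner ESRRA at 0.75 and MYC at 0.71. Of 19 tRNA synthetases, 4 rose and 9 fell (1 and 15 on library totals), with GARS1, which also serves the cytosol, up by 0.83 and VARS2 down at -0.42. Translation factors had 2 of 11 higher and 5 lower (0 and 10), among them MTRF1 at -0.91 and MTIF2 at -0.56. Assembly factors had 8 of 21 higher and 5 lower (1 and 13), with SCO2, a copper chaperone of complex IV, at 0.73, and BCS1L, which completes complex III, at -0.52. All these lists stand beside 62.7% of all genes called, with 49.6% of the calls higher under TMM and 24.2% on library totals.

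Against 20 µg/mL, where 61.9% of all genes were called, the lists with lower medians were transcription (2 of 10 higher, 5 lower, median log2 change -0.13), processing (5 of 21 higher, 9 lower, -0.14), DNA maintenance (4 of 17 higher, 7 lower, -0.05) and regulators (3 of 12 higher, 6 lower, -0.11). Under TMM, with 49.3% of the calls higher, the medians of 3 lists had the opposite sign to that against vehicle. These were translation factors (2 of 11 higher, 4 lower, median 0.02 against 20 µg/mL and -0.22 against vehicle), tRNA synthetases (5 of 19 higher, 7 lower, 0.03 and -0.13) and assembly factors (8 of 21 higher, 3 lower, 0.05 and -0.04). On library totals (64.9% of all genes called, 23.1% of the calls higher) these 3 had 0 higher and 9 lower, 1 and 12, and 1 and 10. Transcription then had 0 and 7, processing 2 and 16, DNA maintenance 1 and 13 and regulators 3 and 8. Medians of the lists on library totals were not taken. TFAM fell by 0.49, LRPPRC by 0.21, DNA2 by 1.39 and MGME1 by 0.60, while PPARGC1A rose by 0.54, ESRRA by 0.74 and GARS1 by 0.80 (adjusted p from 2.76e-22 to 1.37e-04, edgeR). Between 100 and 20 µg/mL, where 7.43% of all genes were called, a share at which lists of this size hold few calls or none, 0 of 10 transcription genes, 0 of 21 processing genes and 0 of 21 assembly factors were called, beside 1 of 17 for DNA maintenance, 1 of 12 regulators, 3 of 19 tRNA synthetases and 0 of 11 translation factors. On library totals (8.81% of all genes called) 1 of the 10 transcription genes was called, lower, and the counts were 0, 1 and 2 for DNA maintenance, regulators and tRNA synthetases, with 0 for the other lists.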

How the data were processed

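RNA sequencing libraries of HepG2 cells were quantified by the authors in expected counts per Ensembl gene, deposited without scaling for depth or length. Per the submitters' processing notes, FastQC 0.11.9, Trim Galore 0.6.5, STAR 2.7.3a, RSEM 1.3.3 and the build GRCh38 were used. Per the labels' protocols, a directional mRNA library kit and paired reads of 100 bases were used, and how mRNA was selected and whether counting used strand are not given in the sources used here. Of the deposited values 8.58% were not whole, and all were rounded. Its other 210 columns were not used. Symbols were matched for 57055 of 60675 IDs through GENCODE 29, which also gave positions and sequences.

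Genes were filtered with filterByExpr (16167 kept), scaled by TMM and tested with edgeR 4.0.16 (R 4.3.3, quasi-likelihood test, Benjamini-Hochberg adjustment over all genes tested, threshold 0.05) in 1 fit over 57 libraries in 19 groups. Palmul-tang, with 1 library a dose, was not tested. The mitochondrial genes and the lists of nuclear genes were chosen with earlier results of these data known. Named nuclear genes are called ones with the smallest p in a comparison, at most 5 a list, with POLRMT, TFAM, LRPPRC and PPARGC1A named in any case, and every tested mitochondrial gene could be named. CPM values and shares are per library total. Shares and ratios over the mitochondrial genes have no test. Alternatives were DESeq2 1.42.0, its size factors, library totals alone, no filter, members left out of scaling, the compared groups alone, a replicate block and leaving out single libraries, and, added after seeing the data, leaving out replicate 1 of sets 5 or 6 and the difference of dose changes between extracts of a set. The fitting script was tested on simulated data.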

Additional observations from a re-analysis of the deposited data

How the results depend on the processing

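Of the 46 calls of mitochondrial genes over 22 comparisons, recomputed under each alternative that touched them (641 values), 546 stayed called in the same direction, 95 kept the direction but lost the call and 0 reversed; the causes were not tested. MT-RNR1 and MT-RNR2 with Cinnamomi Cortex at 500 µg/mL stayed called under every alternative run, against vehicle, against 20 µg/mL and against Astragali Radix. The replicate block kept all 46 calls (47 in all). Deviations from the group means were also correlated over genes, and no comparison had every same-numbered pair above 0.1. For Cinnamomi Cortex against Astragali Radix at 500 µg/mL same-numbered pairs had r of 0.030 to 0.054, and other pairs at most -0.003. For Sagunja-tang against Samul-tang at 500 µg/mL they had -0.118 to -0.034, and other pairs up to 0.089. A cut at 0.1 cannot decide whether libraries of 1 number share a batch, which was not tested.

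Counts of genes called (of 15) moved as follows. Without the filter on low counts they were, for 500 µg/mL against vehicle, 15 with Cnidii Rhizoma, 13 with Rehmanniae Radix Preparata, 6 with Astragali Radix, 3 with Sagunja-tang and 5 with Samul-tang. For 20 µg/mL against vehicle they were 5, 6, 4, 5 and 4 in the same order, with 4 for Cinnamomi Cortex. For 500 against 20 µg/mL they were 12, 5, 1, 2 and 3, and 8 for Cinnamomi Cortex at 100 against 20 µg/mL. Between extracts of a set they were 2, 14 and 1 for sets 5, 6 and 7. This setting called 148 values in all, 6 of them lower, and of all 34074 genes then tested it called 28.9% between the extracts of set 6 and 0.684 to 8.35% in the other comparisons listed. For the settings that follow, the share of all genes called stands in brackets. With only the compared groups fitted, against vehicle at 500 µg/mL Cnidii Rhizoma had 1 (4.08%) and Rehmanniae Radix Preparata 3 (6.1%). At 20 µg/mL Rehmanniae Radix Preparata had 2 (3.27%), Cinnamomi Cortex 2 (6.53%) and Astragali Radix 1 (1.95%). Rehmanniae Radix Preparata had 1 at 500 against 20 µg/mL (0.377%) and Cinnamomi Cortex 6 at 100 against 20 µg/mL (6.36%). Cnidii Rhizoma against Rehmanniae Radix Preparata had 0 (0.118%). Library totals alone gave 1 for Astragali Radix at 20 µg/mL against vehicle (2.72%). For Cinnamomi Cortex they gave 4 at 500 against 20 µg/mL (64.9%) and 5 against Astragali Radix (65.5%). Cnidii Rhizoma at 500 against 20 µg/mL had 1 with DESeq2 (5.51%) and 1 with members left out of scaling (3.11%). Without the replicate 1 libraries of set 5, Cnidii Rhizoma at 500 µg/mL (6.18%) and Rehmanniae Radix Preparata at 20 µg/mL (3.87%) had 1 each against vehicle. Cnidii Rhizoma against Rehmanniae Radix Preparata at 500 µg/mL then had 0 (0.21%). Without the replicate 1 libraries of set 6, Astragali Radix at 500 µg/mL had 0 against vehicle (2.89%). Cinnamomi Cortex had 1 at 100 against 20 µg/mL (4.83%) and 5 against Astragali Radix (56.9%).

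Leaving out 1 library at a time, the counts at 500 µg/mL against vehicle ranged from 9 to 13 for Cinnamomi Cortex, 1 to 10 for Cnidii Rhizoma, 0 to 3 for Rehmanniae Radix Preparata (3 without its replicate 3), 0 to 1 for Astragali Radix and Samul-tang and 1 to 2 for Sagunja-tang (2 without its replicate 2). At 20 µg/mL they were 0 to 1 for Cinnamomi Cortex, Cnidii Rhizoma and Sagunja-tang and 0 for the rest. For 500 against 20 µg/mL they were 6 to 12 for Cinnamomi Cortex, 0 to 6 for Cnidii Rhizoma and 0 for the rest, and for Cinnamomi Cortex at 100 against 20 µg/mL 1 to 2. Between extracts they were 6 to 13 for Cinnamomi Cortex against Astragali Radix, 0 to 1 for Cnidii Rhizoma against Rehmanniae Radix Preparata and 0 for Sagunja-tang against Samul-tang.

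The log2 ratio of the mitochondrial share with Cinnamomi Cortex at 500 µg/mL was 0.48 against vehicle and 0.37 against 20 µg/mL, and with the 13 mRNAs alone 0.29 and 0.21. Leaving out 1 library it ran from 0.44 to 0.55 and from 0.33 to 0.43. For the others, against vehicle and then against 20 µg/mL, it ran from 0.12 to 0.39 and 0.02 to 0.29 (Cnidii Rhizoma), 0.08 to 0.29 and -0.03 to 0.19 (Rehmanniae Radix Preparata), -0.0039 to 0.17 and -0.08 to 0.09 (Astragali Radix), -0.08 to 0.19 and -0.15 to 0.12 (Sagunja-tang), and -0.03 to 0.10 and -0.09 to -0.0068 (Samul-tang). The tRNAs, with at most 4 counts a library, were too low to test, for causes not tested, and MT-ATP8 and MT-ND6 have the widest spread between libraries.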
